A study of Homo sapiens with 22 samples.

Results

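RNA from IMR90 cells given EGF for 60 min was sequenced in 6 libraries of a series of 22, 3 from cells transfected with MSK2 siRNA and 3 from cells transfected with a control siRNA that targets no gene. These 6 libraries were chosen by their labels, which name the time of EGF and the siRNA. IMR90 is a line of fibroblasts from human fetal lung. All cells received siRNA at 10 nM for 72 h in all, were deprived of serum for 24 h and then exposed to 750 pM epidermal growth factor (EGF), so the control cells had the same transfection, starvation and EGF as the cells with MSK2 siRNA. The remaining 16 libraries came from cells with the same siRNAs after PBS (4 and 4) or 30 min of EGF (4 and 4), and are used here to see which differences at 60 min were also present without EGF or earlier. The comparison asks which transcripts differ when MSK2 is depleted in cells exposed to EGF. It rests on 1 cell line and 1 siRNA reagent, with no second siRNA or rescue among these libraries, so that effects of losing MSK2 and other effects of this reagent cannot be told apart. The labels do not say that libraries came from separate cultures, and P values therefore measure the spread between these libraries.

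MSK2 is a nuclear kinase encoded by RPS6KA4 that is switched on by the ERK and p38 MAP kinases and phosphorylates histone H3 at serine 10 and the transcription factor CREB. With its paralog MSK1 it is known for its part in the rapid transcription of immediate-early genes after growth factors and stress. EGF binds its receptor at the cell surface and signals through RAS, RAF, MEK and ERK to such kinases, and the genes induced early code for transcription factors, for inhibitors of the same pathway and for secreted factors.

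The targeted mRNA was low in every library with MSK2 siRNA. RPS6KA4 (ENSG00000162302, chromosome 11 from 64359148 to 64372215 in GRCh38) was at 26.9, 18.2 and 19.1 CPM with control siRNA and 2.15, 2.96 and 3.65 CPM with MSK2 siRNA. The groups did not overlap, and the log2 fold change was −2.86, SE 0.28, edgeR adjusted P = 1.09e-08 (P = 0.1 in an exact 2-sided permutation test, the smallest that 3 against 3 libraries allow). CPM are counts per 1000000 counts of a library, scaled by TMM, and log2 fold changes are those of MSK2 siRNA against control siRNA. RPS6KA5, which codes for MSK1, was at 6.86, 6.76 and 7.72 CPM with control siRNA and 7.71, 6.94 and 10.9 CPM with MSK2 siRNA, ranges that overlapped (edgeR adjusted P = 0.4). Among the related RSK kinases, which ERK also activates, RPS6KA2 (RSK3) fell, from 290.5, 280.1 and 278 CPM with control siRNA to 212, 192 and 187 CPM with MSK2 siRNA (log2 fold change −0.52, SE 0.08, edgeR adjusted P = 3.01e-05). RPS6KA1 (RSK1) fell as well (log2 fold change −0.98, SE 0.23, edgeR adjusted P = 0.00231) at a level of at most 12.5 CPM, while RPS6KA3 (RSK2) did not pass (log2 fold change 0.17, edgeR adjusted P = 0.321).

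Counts assigned to genes were 12169509 to 17467101 per library with control siRNA and 12601179 to 16787564 with MSK2 siRNA. The first principal component of the 6 libraries held 60.4% of the variance of log2 CPM and separated the siRNAs. Transcripts of the mitochondrial genome held 1.16 to 1.59% of counts with control siRNA and 1.82 to 1.95% with MSK2 siRNA, and the part of this shift in the results below was not tested. Of 14 fibroblast markers 13 passed the filter on low counts, COL1A2 highest of them, and their summed level was 45925 to 48789 CPM with control siRNA and 53459 to 56530 CPM with MSK2 siRNA, although 6 of the 13 were called lower and 2 higher at 60 min (3 lower without MSK2 siRNA replicate 3). The 7 leukocyte markers, PTPRC and CD14 among them, were all under a mean of 1 CPM, and their sum was at most 0.952 CPM in any library. Of 7 endothelial markers TEK alone passed the filter on low counts, and 3 of 8 epithelial markers did, KRT18 being the highest with a mean of 48.5 CPM. In bulk RNA, fewer cells of a type and less RNA per cell cannot be told apart.

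The 9770 genes tested were those over 10 CPM in 2 or more of all 22 libraries. At a Benjamini-Hochberg adjusted P under 0.05 from edgeR's quasi-likelihood test, 915 genes were higher with MSK2 siRNA at 60 min of EGF (9.37% of those tested) and 982 were lower (10.1%), so that 19.4% of all genes tested were called. These shares are the background for each gene list below. The differences were mostly modest in size. Among the called genes the median absolute log2 fold change was 0.49, and 55 genes rose and 96 fell by more than 1 on the log2 scale. The 2 groups of libraries did not overlap for 36.4% of the genes tested. Most genes named below were picked as called or for a small P in these same libraries. That their groups stand apart is thus largely set by the choice and is no further evidence. With 3 libraries a group, the number of genes called higher was 651 to 825 and of those called lower 743 to 861 when single libraries were left out.

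GAL (ENSG00000069482, chromosome 11 from 68683779 to 68691175) codes for the neuropeptide galanin. It had the largest rise among the called genes whose siRNA groups do not overlap. It was at 20.4, 17.6 and 15.8 CPM with control siRNA and 101, 128 and 109 CPM with MSK2 siRNA (log2 fold change 2.65, SE 0.13, edgeR adjusted P = 1.54e-14). Each library with MSK2 siRNA lay several-fold above each with control siRNA. ANGPTL4, a secreted inhibitor of lipoprotein lipase and a target of PPAR receptors, was at 17.9, 13.5 and 11.8 CPM with control siRNA and 70.05, 68.8 and 73.2 CPM with MSK2 siRNA (log2 fold change 2.30, SE 0.18, edgeR adjusted P = 1.77e-10). The alcohol dehydrogenase ADH1B was at 8.73, 6.59 and 7.98 CPM with control siRNA and 31.5, 32.8 and 26.9 CPM with MSK2 siRNA. The phosphatase gene DUSP4, whose product dephosphorylates ERK in the nucleus, was at 5.42, 5.71 and 4.79 CPM with control siRNA and 14.6, 16.8 and 17.97 CPM with MSK2 siRNA. RGS2, which limits signaling by G proteins, was at 36.2, 40.7 and 38.1 CPM with control siRNA and 95.97, 123 and 102 CPM with MSK2 siRNA (log2 fold change 1.48, SE 0.11, edgeR adjusted P = 8.64e-11). For these 5 genes the siRNA groups did not overlap, which the rule that picked the largest rises required. The amino acid transporter SLC6A15 rose by a log2 fold change of 1.45, the growth factor TGFB3 by 1.46, the desmosomal protein periplakin (PPL) by 1.41 and the small GTPase DIRAS3, a negative regulator of growth, by 1.40. Of the other genes among the 15 largest rises, TMEM100 had a log2 fold change of 1.79, CXADR of 1.69, MYBL1 of 1.55, FAM13C of 1.43, H2BC5 of 1.40 and PLCE1 of 1.37, so that TMEM100 and CXADR rose more than DUSP4, and MYBL1 more than RGS2. H2BC5 belongs to the family of near-identical histone genes, so its reads are uncertain.

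The largest falls included an ion channel, a ligand of Notch receptors, a receptor of angiopoietins and the inducible cyclooxygenase. NSG1, a protein of endosomes in neurons, was at 12.5, 14.4 and 15.1 CPM with control siRNA and 1.51, 2.17 and 1.98 CPM with MSK2 siRNA (log2 fold change −2.87, SE 0.25, edgeR adjusted P = 1.76e-09). TRPA1, a cation channel that responds to irritant chemicals, was at 255, 269 and 265 CPM with control siRNA and 42.5, 43.1 and 43.1 CPM with MSK2 siRNA (log2 fold change −2.62, SE 0.11, edgeR adjusted P = 1.03e-15). The 3 libraries of each siRNA lay within a few percent of one another for TRPA1, and the groups were far apart. DLL4, a ligand of Notch receptors, was at 25.3, 22.2 and 21.7 CPM with control siRNA and 6.68, 4.11 and 4.95 CPM with MSK2 siRNA. TEK, the receptor of angiopoietins, was at 57.3, 57.5 and 49.4 CPM with control siRNA and 18.6, 16.4 and 11.9 CPM with MSK2 siRNA. PTGS2, the inducible cyclooxygenase that starts prostaglandin synthesis, was at 38.5, 38.7 and 40.6 CPM with control siRNA and 9.70, 14.2 and 9.14 CPM with MSK2 siRNA (log2 fold change −1.83, SE 0.24, edgeR adjusted P = 2e-06). Groups did not overlap for any of these 5, which was a condition for the choice of the largest falls. The semaphorin SEMA4D fell by 2.19 on the log2 scale, the fibrinogen-like protein FGL2 fell by 2.13, the adaptor INSC fell by 2.30 and the zinc finger gene ZNF71 fell by 2.10. DUSP2, a nuclear MAP kinase phosphatase, was at 60.9, 44.7 and 42.5 CPM with control siRNA and 12.96, 18.1 and 13.8 CPM with MSK2 siRNA, and TK1, thymidine kinase of S phase, was at 30.1, 26.9 and 25.7 CPM with control siRNA and 8.83, 7.43 and 8.60 CPM with MSK2 siRNA. Both sets of libraries stood apart for these 2 genes as well, by the same condition. RPS28 (log2 fold change −1.77) has near-identical copies elsewhere in the genome, and its reads are uncertain. In the annotation NSG1 overlaps STX18, PTGS2 overlaps PACERR, TRPA1 overlaps MSC-AS1 and TGFB3 overlaps IFT43.

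**Figure D1:**
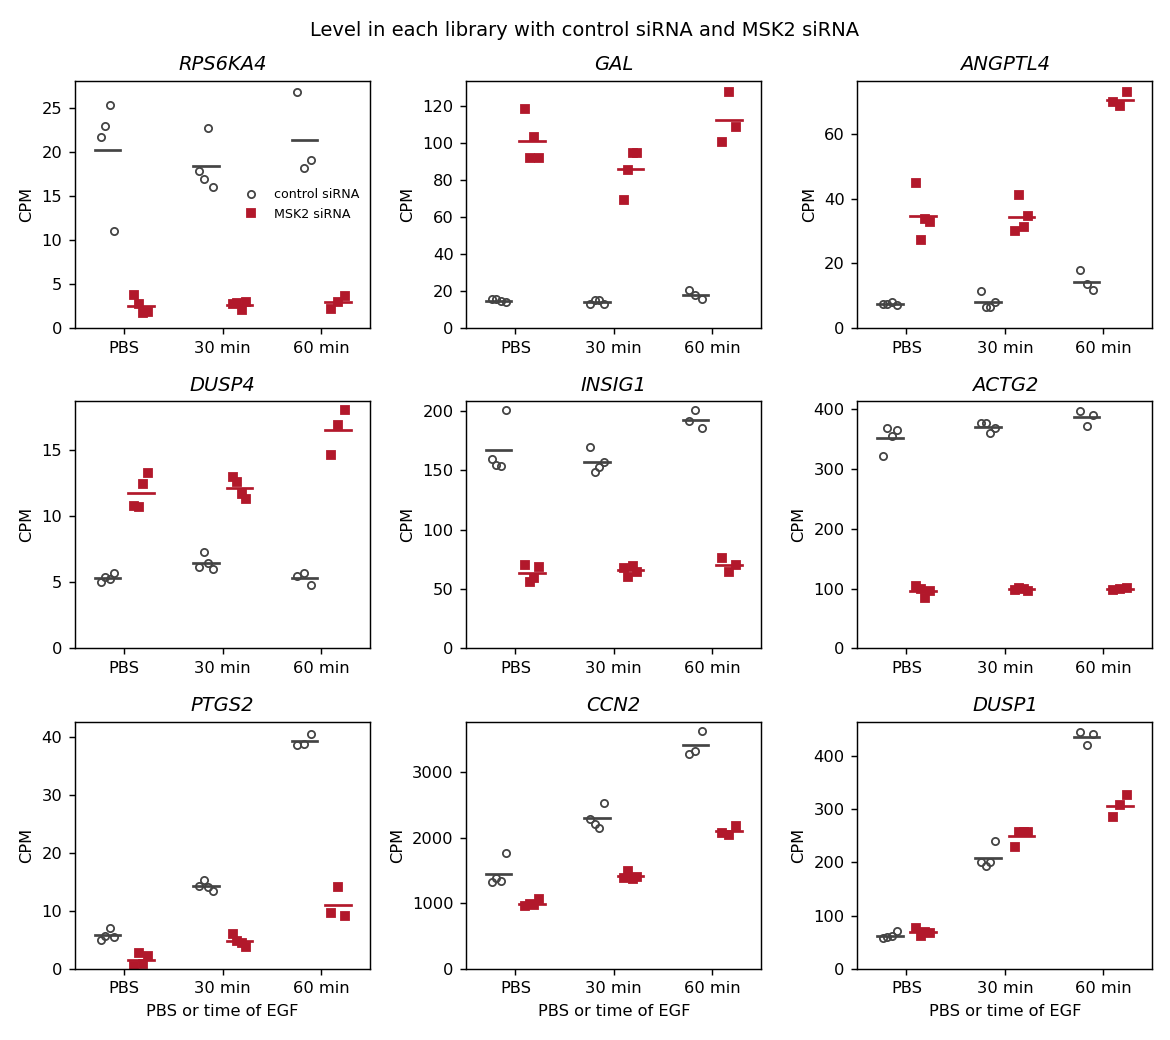
CPM (linear axis from 0) of 9 genes, with 1 point a library, under PBS, at 30 min and at 60 min of EGF. Open circles are control siRNA, red squares MSK2 siRNA and lines are group means. At 60 min the 2 siRNA groups do not overlap for any of the 9 genes, and DUSP1 is lower with MSK2 siRNA at 60 min but not after PBS or at 30 min.

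Differences also reached some of the most abundant mRNAs of these cells. COL1A2, a chain of type I collagen, was at 18631, 17483 and 18162 CPM with control siRNA and 24862, 24258 and 24481 CPM with MSK2 siRNA (log2 fold change 0.44, SE 0.07, edgeR adjusted P = 6.4e-05). CDKN1A, which codes for the cell cycle inhibitor p21, was at 2986, 2697 and 2707 CPM with control siRNA and 3805, 4092 and 4199 CPM with MSK2 siRNA. PSAP, the precursor of the saposins of the lysosome, was at 3139, 3038 and 3173 CPM with control siRNA and 3809, 4094 and 3844 CPM with MSK2 siRNA. All 3 were higher in each library with MSK2 siRNA. ACTB, cytoplasmic actin, was at 11956, 11139 and 11541 CPM with control siRNA and 7146, 7356 and 7729.9 CPM with MSK2 siRNA (log2 fold change −0.64, SE 0.07, edgeR adjusted P = 6.83e-08). The matricellular protein CCN2 was at 3285, 3335 and 3639 CPM with control siRNA and 2073, 2052 and 2183 CPM with MSK2 siRNA, and COL6A2, a chain of type VI collagen, was at 3431, 2849 and 2834 CPM with control siRNA and 1984, 2154 and 2062 CPM with MSK2 siRNA. These 3 were lower in each library with MSK2 siRNA. The mitochondrial ribosomal RNA MT-RNR2 was also among the abundant genes that rose (log2 fold change 0.73, SE 0.14, edgeR adjusted P = 0.000344), and since the nuclear genome holds copies of it, its reads are uncertain. Of 15 genes of the mitochondrial genome, 3 were called higher, and 1 was without MSK2 siRNA replicate 2.

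Genes of cholesterol synthesis and uptake were lower with MSK2 siRNA along almost the whole pathway. Of 24 listed genes 20 were tested, and 15 fell and 1 rose, with a median log2 fold change of −0.83 (0.0087 over all genes tested). INSIG1, which holds the sterol sensor SCAP in the endoplasmic reticulum, was at 192, 201 and 186 CPM with control siRNA and 76.6, 64.7 and 70.6 CPM with MSK2 siRNA (log2 fold change −1.45, SE 0.10, edgeR adjusted P = 2.95e-11). MSMO1, a sterol oxidase, was at 167, 195 and 183 CPM with control siRNA and 83.2, 75.1 and 81.00 CPM with MSK2 siRNA. ACAT2, which makes acetoacetyl-CoA at the start of the pathway, was at 63.03, 75.9 and 69.8 CPM with control siRNA and 29.6, 31.1 and 33.5 CPM with MSK2 siRNA. Each library with MSK2 siRNA lay far below each control library for these 3 genes. Here and in the lists below, members were picked for the smallest P, which favors groups that do not overlap. Other members that fell were HMGCS1, MVD, IDI1, FDPS, FDFT1, SQLE, LSS, NSDHL and DHCR7. PMVK, phosphomevalonate kinase, was the member that rose (log2 fold change 0.39, SE 0.13, edgeR adjusted P = 0.0327), a call that was lost without control replicate 1 or 3 or MSK2 siRNA replicate 2 or 3 (edgeR adjusted P = 0.0555, 0.166, 0.116 and 0.11). Of 7 genes for the processing of SREBP, the transcription factor that drives this pathway, INSIG1 and SREBF2 fell. SREBF2 was at 205, 184 and 178 CPM with control siRNA and 137, 124 and 127 CPM with MSK2 siRNA (log2 fold change −0.55, SE 0.12, edgeR adjusted P = 0.0014). By whole gene spans in GENCODE v44, ACAT2 overlaps TCP1 and SOD2, and without strand reads of a shared part cannot be told apart.

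Genes of fatty acid synthesis fell as well. Of 14 listed genes 13 were tested, 10 fell and the other 3 did not pass, with a median of −0.54, and 7 to 10 fell when single libraries were left out. SCD, which makes monounsaturated fatty acids, was at 1116, 1185 and 1177 CPM with control siRNA and 547, 481 and 491 CPM with MSK2 siRNA (log2 fold change −1.20, SE 0.08, edgeR adjusted P = 4.43e-12). FADS1, a desaturase of polyunsaturated fatty acids, was at 219, 225 and 236 CPM with control siRNA and 107, 116 and 122 CPM with MSK2 siRNA. Its neighbor FADS2, which overlaps it in the annotation, was at 688, 641 and 646 CPM with control siRNA and 349, 359 and 327 CPM with MSK2 siRNA. The elongase ELOVL6 was at 35.7, 39.1 and 33.5 CPM with control siRNA and 19.4, 17.99 and 20.6 CPM with MSK2 siRNA. ACLY, which supplies cytosolic acetyl-CoA, was at 358, 340.0 and 359 CPM with control siRNA and 268, 257 and 258 CPM with MSK2 siRNA. No library with MSK2 siRNA reached the lowest control library for these 5 genes. FASN, ACACA, ACSS2, ELOVL5 and ME1 were the other members that fell. ACSS2 lost its call without control replicate 1 or 3 or any MSK2 siRNA replicate (edgeR adjusted P = 0.0667 to 0.177). It also lost it with library sizes alone (edgeR adjusted P = 0.0568) and with no filter (0.0548). FASN lost its call without MSK2 siRNA replicate 2 (edgeR adjusted P = 0.0869), and ACACA without control replicate 1 (0.0742) or MSK2 siRNA replicate 2 (0.0564).

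Genes of sterol export and lipid use were mostly higher. Of 8 genes on a list of LXR targets and sterol efflux, 6 rose and 1 fell, with a median of 0.50. LXR is the nuclear receptor for oxysterols, and the list also holds the genes of the receptor itself, NR1H3 and NR1H2. MYLIP, a ubiquitin ligase induced by sterols, was at 23.6, 21.7 and 22.8 CPM with control siRNA and 37.4, 34.8 and 44.5 CPM with MSK2 siRNA (log2 fold change 0.78, SE 0.12, edgeR adjusted P = 3.49e-05). ABCA1, the exporter of cholesterol, was at 131, 126 and 149 CPM with control siRNA and 212, 184 and 225 CPM with MSK2 siRNA (log2 fold change 0.62, SE 0.14, edgeR adjusted P = 0.00167). APOE, a carrier of exported lipid, was at 129, 92.03 and 96.7 CPM with control siRNA and 145, 193 and 164 CPM with MSK2 siRNA. For each of the 3 the lowest library with MSK2 siRNA was above the highest with control siRNA. NR1H3 (LXR alpha), NR1H2 (LXR beta) and ABCG1 rose as well, and 4 to 6 members rose when single libraries were left out. NR1H2 lost its call without control replicate 2 or 3 or MSK2 siRNA replicate 2 or 3 (edgeR adjusted P = 0.131, 0.189, 0.188 and 0.115), with filterByExpr (0.0721), with no filter (0.117) and with the replicate block (0.0537). ABCG1 lost its call without control replicate 1 (edgeR adjusted P = 0.112) and without MSK2 siRNA replicate 2 (0.101) or 3 (0.0531). SMPDL3A, a phosphodiesterase of the list, fell, from 115, 130.3 and 113 CPM with control siRNA to 70.9, 65.6 and 66.6 CPM with MSK2 siRNA. Among 15 tested targets of PPAR receptors and genes of fatty acid oxidation, 7 rose and 2 fell (median 0.28), and 1 fell without control replicate 1 or 2 or MSK2 siRNA replicate 1 or 3. PLIN2, the coat protein of lipid droplets, was at 258, 237 and 235 CPM with control siRNA and 300.0, 312 and 329 CPM with MSK2 siRNA. The dehydrogenase ACADVL was at 332, 301 and 271 CPM with control siRNA and 404, 397 and 392 CPM with MSK2 siRNA. PPARD, itself a PPAR receptor, was at 89.03, 78.2 and 70.6 CPM with control siRNA and 51.8, 46.3 and 46.1 CPM with MSK2 siRNA. The siRNA groups did not overlap for any of these 3.

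**Figure D2:**
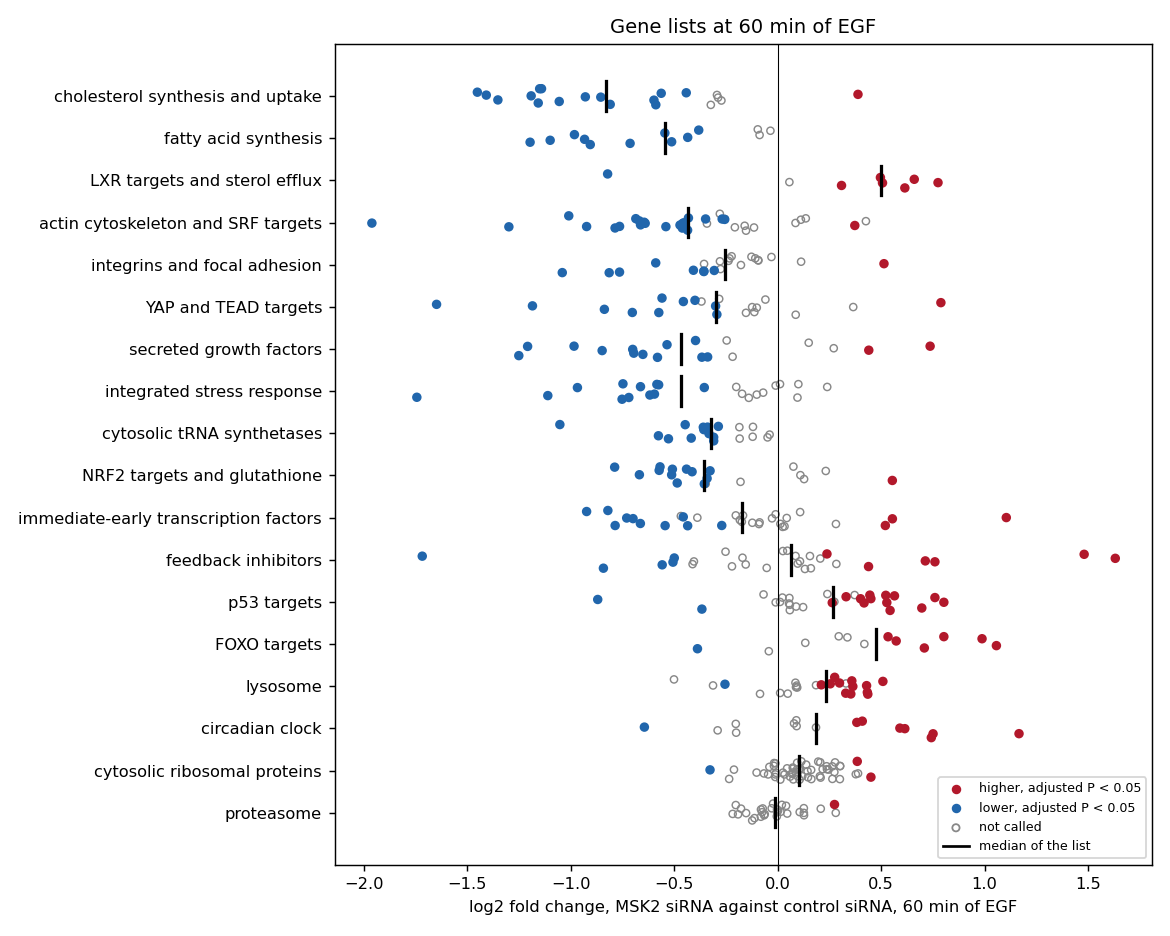
Log2 fold change of MSK2 siRNA against control siRNA at 60 min of EGF for each tested member of 18 gene lists. Each point is a gene, red where higher and blue where lower at an edgeR adjusted P under 0.05, open where not called, and black lines are list medians. The medians run from −0.83 for cholesterol synthesis and uptake to 0.50 for LXR targets and sterol efflux. Those of ribosomal proteins and the proteasome are 0.11 and −0.01.

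Genes of the actin cytoskeleton formed the list with the most members lower by number, apart from the study's own list given last. By share, 63.6% of those tested fell. The share was 76.9% for fatty acid synthesis, 75% for cholesterol synthesis and uptake, and 66.7% for both secreted growth factors and tRNA synthetases. Of 33 genes for actin, its partners and other targets of the transcription factor SRF, all of which were tested, 21 fell and 1 rose, with a median of −0.43. ACTG2, smooth muscle gamma actin (ENSG00000163017, chromosome 2 from 73892314 to 73919865), was at 397, 372 and 391 CPM with control siRNA and 98.3, 99.1 and 101 CPM with MSK2 siRNA (log2 fold change −1.96, SE 0.08, edgeR adjusted P = 9.03e-17). TGFB1I1, a focal adhesion adaptor also called Hic-5, was at 195, 169 and 175 CPM with control siRNA and 72.5, 73.5 and 72.9 CPM with MSK2 siRNA (log2 fold change −1.30, SE 0.10, edgeR adjusted P = 1.33e-10). CNN1, calponin, was at 34.8, 32.4 and 33.6 CPM with control siRNA and 15.3, 16.97 and 17.8 CPM with MSK2 siRNA. TAGLN, transgelin, was at 202, 205 and 179 CPM with control siRNA and 119, 123 and 127 CPM with MSK2 siRNA. ACTG1, cytoplasmic gamma actin, was at 3749.7, 3443 and 3605 CPM with control siRNA and 2096, 2100.2 and 2165 CPM with MSK2 siRNA. SRF itself was at 39.1, 36.2 and 30.2 CPM with control siRNA and 20.4, 17.1 and 18.1 CPM with MSK2 siRNA (log2 fold change −0.92, SE 0.13, edgeR adjusted P = 4.97e-06). In all 6 genes each library with MSK2 siRNA was below each with control siRNA. ACTB, ACTG1 and ACTG2 are similar in sequence, so that reads between actin genes are uncertain. Tropomyosins (TPM1, TPM3, TPM4), myosin heavy chains (MYH9, MYH10), VCL, FLNA, ZYX, ACTN1, MYLK, CNN2, CNN3, FHL1 and PDLIM7 were the others that fell with ACTB, and 19 to 21 members fell when single libraries were left out. LMOD1, leiomodin, was at 14.99, 16.9 and 14.5 CPM with control siRNA and 19.96, 20.1 and 20.2 CPM with MSK2 siRNA, and its call (edgeR adjusted P = 0.0478) was lost without any 1 of the libraries other than control replicate 2 (edgeR adjusted P = 0.0814 to 0.147). The summed level of 7 markers of smooth muscle cells and pericytes was 289.6 to 345 CPM with control siRNA and 209.7 to 248 CPM with MSK2 siRNA, and its part in these falls was not tested.

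SRF binds the CArG box, a run of 6 A or T bases between a pair of C and a pair of G. Among 8001 tested genes with a promoter in the RefSeq table (GRCh38.p14, 250 bases before the start to 50 after it), 92 held a CArG box on either strand (1.15%). The box was in 25 of 806 promoters of genes called lower (3.1%), in 9 of 747 of genes called higher (1.2%) and in 7 of the 19 promoters of actin list members called lower (36.8%). These 7 were ACTG2, ACTG1, SRF, MYLK, TPM4, CNN2 and FLNA. The 25 promoters of genes called lower include these 7. Of all 30 promoters of actin list members tested, called or not, 8 held the box (26.7%). The actin list was drawn up from known SRF targets, so that its share, and its part in the 25, is no independent evidence. The promoters of ACTG2 (chr2:73892758-73893057, + strand) and ACTG1 (chr17:81512750-81513049, - strand) are shown because they are the list members with the box and the smallest P. Capitals mark the CArG boxes.
ACTG2: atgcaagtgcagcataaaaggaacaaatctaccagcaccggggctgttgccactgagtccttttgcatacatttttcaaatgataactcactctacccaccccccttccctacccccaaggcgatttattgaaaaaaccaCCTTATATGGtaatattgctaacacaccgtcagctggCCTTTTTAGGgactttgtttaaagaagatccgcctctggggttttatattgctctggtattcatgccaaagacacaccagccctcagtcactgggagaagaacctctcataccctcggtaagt
ACTG1: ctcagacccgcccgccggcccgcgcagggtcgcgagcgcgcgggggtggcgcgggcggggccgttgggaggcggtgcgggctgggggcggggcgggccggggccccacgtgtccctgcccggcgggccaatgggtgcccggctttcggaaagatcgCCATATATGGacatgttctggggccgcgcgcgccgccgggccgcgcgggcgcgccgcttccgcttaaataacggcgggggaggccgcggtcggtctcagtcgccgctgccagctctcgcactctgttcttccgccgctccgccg
In ACTG2 the boxes begin 110 and 73 bases before RefSeq's start, and in ACTG1 the box begins 94 bases before it. A match describes these letters and shows no binding.

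The other motifs had similar shares in both directions. The TEAD site GGAATG was in 10.5% of all 8001 promoters, in 12.7% of those of genes called lower and in 12.6% of those of genes called higher. The cyclic AMP response element TGACGTCA, the site of CREB, was in 3.64% of all, 2.61% of those called lower and 3.35% of those called higher. The sterol regulatory element TCACNCCAC was in 1.1%, 1.36% and 1.07%, and in none of the 14 promoters of cholesterol list members that had an entry. All motifs were searched on both strands, and no motif holds another whole, although a TEAD site can share the last letters of a CArG box and a sterol element those of a cyclic AMP element. The lack of a match says only that these letters are not in this window.

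Adhesion receptors and targets of the YAP and TEAD regulators, which respond to actin and cell tension, also fell more often than they rose. CDC42, a GTPase that organizes actin, was at 118, 143 and 136 CPM with control siRNA and 56.5, 55.6 and 55.04 CPM with MSK2 siRNA (log2 fold change −1.25, SE 0.10, edgeR adjusted P = 2.07e-10). Of 22 integrins and focal adhesion genes 8 fell and 1 rose (0 rose without control replicate 2 or 3 or MSK2 siRNA replicate 1 or 3). ITGA5, the fibronectin receptor subunit, was at 869.8, 771 and 809 CPM with control siRNA and 568, 517 and 544 CPM with MSK2 siRNA. ITGB3, a subunit of the vitronectin receptor, was at 28.2, 29.5 and 34.1 CPM with control siRNA and 15.2, 15.2 and 14.2 CPM with MSK2 siRNA. Each library with MSK2 siRNA was below the control libraries for both. Among 20 YAP and TEAD targets, 10 were lower and 1 was higher, with a median of −0.30. F3, tissue factor and the trigger of coagulation, was at 1044, 1041 and 1095 CPM with control siRNA and 346, 321 and 348 CPM with MSK2 siRNA (log2 fold change −1.65, SE 0.07, edgeR adjusted P = 1.03e-15). NUAK2, a kinase of the AMPK family, was at 143, 116 and 116 CPM with control siRNA and 54.1, 52.3 and 58.6 CPM with MSK2 siRNA (log2 fold change −1.18, SE 0.12, edgeR adjusted P = 3.47e-08). CCN1, a matricellular protein, was at 1720.1, 1732 and 1727 CPM with control siRNA and 912, 996 and 992 CPM with MSK2 siRNA. The member that rose was NT5E, the ectonucleotidase CD73, at 269.6, 278 and 263 CPM with control siRNA and 509, 416 and 476 CPM with MSK2 siRNA. None of these 4 had overlapping groups.

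In the coagulation and plasminogen list, 4 of 10 genes fell and 2 rose. The thrombin receptor F2R was at 897, 934 and 944 CPM with control siRNA and 669, 563 and 628 CPM with MSK2 siRNA, lower in each library with MSK2 siRNA. SERPINE2, an inhibitor of thrombin and urokinase, was at 294, 303 and 289.6 CPM with control siRNA and 590.2, 563 and 638 CPM with MSK2 siRNA (log2 fold change 1.01, SE 0.08, edgeR adjusted P = 6.02e-10). TFPI2, an inhibitor of plasmin, was at 24.9, 30.4 and 26.6 CPM with control siRNA and 46.6, 60.3 and 66.1 CPM with MSK2 siRNA. Both were higher in each. Matrix genes went both ways. Of 19 genes for collagen processing 5 fell and 2 rose. LOXL3, a lysyl oxidase, was at 56.4, 46.8 and 47.02 CPM with control siRNA and 21.5, 23.6 and 21.8 CPM with MSK2 siRNA. P4HA3, a prolyl hydroxylase subunit, was at 26.5, 26.3 and 28.3 CPM with control siRNA and 59.3, 63.6 and 72.5 CPM with MSK2 siRNA. The groups stood apart in opposite directions for these 2. Among 22 collagens 4 fell and 2 rose (median −0.18), and among 31 matrix glycoproteins and proteoglycans 10 fell and 5 rose (median −0.05). ADAMTS1, a secreted protease, fell by 1.01 on the log2 scale, and TIMP1, an inhibitor of metalloproteinases, rose by 0.53.

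Secreted growth factors were mostly lower. Of 18 tested members of 30 listed, 12 fell and 2 rose, with a median of −0.47. Over the members that pass edgeR's filterByExpr the median was −0.35, and with no filter on low counts it was −0.25, while 12 fell under both. PDGFD, a ligand of PDGF receptors, was at 136, 151 and 152 CPM with control siRNA and 64.4, 68.7 and 57.2 CPM with MSK2 siRNA (log2 fold change −1.21, SE 0.11, edgeR adjusted P = 1.67e-09). The cytokine IL11 was at 33.2, 26.5 and 22.4 CPM with control siRNA and 10.7, 11.7 and 12.1 CPM with MSK2 siRNA. VEGFA, the main angiogenic growth factor, was at 186, 185 and 159.8 CPM with control siRNA and 98.5, 106 and 89.98 CPM with MSK2 siRNA. HGF, the ligand of the MET receptor, was at 244, 235 and 275 CPM with control siRNA and 181, 169.7 and 169.9 CPM with MSK2 siRNA. For all 4 the libraries with MSK2 siRNA were below the control libraries. FGF2 was at 25.3, 32.2 and 33.4 CPM with control siRNA and 55.6, 51.4 and 45.1 CPM with MSK2 siRNA, higher in each library with MSK2 siRNA. The other member called higher was VEGFC, whose call was lost without control replicate 1 or 3 or MSK2 siRNA replicate 1 or 3 (edgeR adjusted P = 0.0678, 0.0902, 0.0797 and 0.0953). In the TGF-beta and BMP family 5 of 21 genes fell and 4 rose, TGFB3 among the latter. The ligand BMP4 was at 68.8, 68.7 and 70.6 CPM with control siRNA and 26.6, 36.3 and 33.7 CPM with MSK2 siRNA. Of 22 Wnt pathway genes 7 fell and 2 rose, and 4 fell without control replicate 1, while 1 rose without control replicate 2 or 3 or MSK2 siRNA replicate 3. The receptor FZD1 was at 75.6, 75.2 and 76.6 CPM with control siRNA and 29.3, 23.97 and 24.1 CPM with MSK2 siRNA. The secreted antagonist FRZB was at 182, 171 and 181 CPM with control siRNA and 79.6, 81.03 and 69.5 CPM with MSK2 siRNA. BMP4, FZD1 and FRZB were lower in each library with MSK2 siRNA. Of 5 tested chemokines and interleukins 1 rose and 2 fell, and 0 fell without control replicate 3 and 1 without control replicate 2 or MSK2 siRNA replicate 1. CXCL12, a chemokine made by stromal cells, rose, from 14.7, 11.9 and 12.6 CPM with control siRNA to 35.6, 28.7 and 29.4 CPM with MSK2 siRNA. CXCL8 and CXCL1, chemokines that attract neutrophils, fell by 0.70 and 0.60 on the log2 scale. In the prostaglandin list of 9 tested genes 3 fell and 1 rose (0 rose without control replicate 1). PTGS1, the constitutive cyclooxygenase, was at 283, 286 and 291 CPM with control siRNA and 178, 171 and 165 CPM with MSK2 siRNA. PTGER2, a receptor of prostaglandin E, was at 117, 132 and 132 CPM with control siRNA and 66.8, 64.7 and 64.9 CPM with MSK2 siRNA. Both lay lower in every library with MSK2 siRNA.

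Genes of amino acid supply and charging were lower. Of 22 targets of the integrated stress response, which is driven by the transcription factor ATF4, 12 fell and 10 did not pass, with a median of −0.46 (−0.29 with filterByExpr and −0.30 with no filter, under both of which 12 fell). CHAC1, which degrades glutathione, was at 92.5, 77.1 and 70.7 CPM with control siRNA and 20.8, 24.4 and 26.5 CPM with MSK2 siRNA (log2 fold change −1.74, SE 0.15, edgeR adjusted P = 8.84e-10). SLC7A5, a transporter of large neutral amino acids, was at 185, 159 and 153 CPM with control siRNA and 81.97, 77.05 and 71.5 CPM with MSK2 siRNA. The pseudokinase TRIB3 was at 242, 191 and 202 CPM with control siRNA and 101, 117 and 106 CPM with MSK2 siRNA. MTHFD2, a mitochondrial enzyme of folate metabolism, was at 88.4, 110.0 and 94.8 CPM with control siRNA and 57.6, 58.1 and 59.1 CPM with MSK2 siRNA. Serine synthesis (PHGDH, PSAT1, PSPH) and SHMT2 were among the others that fell. Of 18 cytosolic tRNA synthetases, which join amino acids to their tRNAs, 12 fell and 6 did not pass, with a median of −0.32. WARS1, for tryptophan, was at 742, 668 and 703 CPM with control siRNA and 361, 339 and 319 CPM with MSK2 siRNA (log2 fold change −1.05, SE 0.07, edgeR adjusted P = 3.17e-11). GARS1, for glycine, was at 485, 525 and 521 CPM with control siRNA and 358, 353 and 351 CPM with MSK2 siRNA. None of these 6 genes had overlapping groups.

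The antioxidant and pentose phosphate genes controlled by NRF2 fell in 12 of 19 cases and rose in 1 (2 without MSK2 siRNA replicate 1), with a median of −0.35. TKT, transketolase, was at 494, 461 and 465 CPM with control siRNA and 276, 303 and 315 CPM with MSK2 siRNA (log2 fold change −0.67, SE 0.08, edgeR adjusted P = 3.75e-07). TXNRD1, thioredoxin reductase, was at 781, 876 and 821 CPM with control siRNA and 592, 516 and 559.6 CPM with MSK2 siRNA. PGD, of the oxidative pentose phosphate pathway, was at 642, 623 and 627 CPM with control siRNA and 425, 446 and 481 CPM with MSK2 siRNA. GPX1, a glutathione peroxidase, was at 236, 242 and 224 CPM with control siRNA and 293, 391 and 348 CPM with MSK2 siRNA and rose. HSPA5, the main chaperone of the endoplasmic reticulum, was at 1453, 1441 and 1404 CPM with control siRNA and 913, 919 and 878 CPM with MSK2 siRNA, and 8 of 20 genes of the unfolded protein response fell and 1 rose (5 fell without MSK2 siRNA replicate 3, and 0 rose without control replicate 1 or MSK2 siRNA replicate 2). PFKP, a phosphofructokinase of glycolysis, was at 151, 139 and 140.0 CPM with control siRNA and 63.8, 64.6 and 60.4 CPM with MSK2 siRNA (log2 fold change −1.19, SE 0.09, edgeR adjusted P = 1.01e-10), one of 3 of the 20 glycolysis genes that fell, while LDHA rose (log2 fold change 0.32). All 6 genes given with their libraries here had groups that did not overlap.

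Targets of p53 and FOXO, transcription factors active in arrested or starved cells, rose more often than they fell. Of 28 p53 targets 13 rose and 2 fell, with a median of 0.27, and 1 fell without control replicate 1 or MSK2 siRNA replicate 1 or 3. SESN1, a sestrin that restrains mTORC1, was at 59.9, 64.1 and 56.8 CPM with control siRNA and 108, 103 and 104 CPM with MSK2 siRNA (log2 fold change 0.80, SE 0.10, edgeR adjusted P = 4.54e-07). RRM2B, the p53-induced ribonucleotide reductase, was at 118, 138 and 136 CPM with control siRNA and 227, 199 and 211 CPM with MSK2 siRNA. BTG2, an antiproliferative factor, was at 114, 139.9 and 129.7 CPM with control siRNA and 203, 230.4 and 216 CPM with MSK2 siRNA. PMAIP1, the proapoptotic NOXA, was lower, at 218, 234 and 225 CPM with control siRNA and 143, 116 and 112 CPM with MSK2 siRNA. Of 12 FOXO targets 6 rose and 1 fell, with a median of 0.48. TXNIP, which inhibits thioredoxin and glucose uptake, was at 145, 155 and 162 CPM with control siRNA and 302, 328 and 332 CPM with MSK2 siRNA (log2 fold change 1.06, SE 0.08, edgeR adjusted P = 1.27e-10). The ubiquitin ligase FBXO32 was at 78.8, 80.5 and 86.6 CPM with control siRNA and 128, 142 and 133 CPM with MSK2 siRNA. The sestrin SESN3 was at 16.6, 15.97 and 21.2 CPM with control siRNA and 35.9, 32.3 and 38.7 CPM with MSK2 siRNA. For each of these 7 genes the siRNA groups were separate. FOXO3 itself fell by 0.39 on the log2 scale (edgeR adjusted P = 0.00603), with groups that overlapped. Of 16 tested genes of S phase 8 fell and 2 rose. Without control replicate 3 or MSK2 siRNA replicate 2, 5 fell and 1 rose, and 1 rose without control replicate 2. UHRF1, which maintains DNA methylation, was at 14.5, 17.4 and 17.8 CPM with control siRNA and 7.08, 5.07 and 5.94 CPM with MSK2 siRNA. CCNE1, cyclin E1, was at 14.5, 12.9 and 12.00 CPM with control siRNA and 5.65, 4.65 and 6.78 CPM with MSK2 siRNA. Both were lower in each library with MSK2 siRNA. Of 18 mitosis genes 4 passed the filter on low counts and 0 were called in edgeR, with 0 higher and 1 lower at an unadjusted P under 0.05. With edgeR's filterByExpr or no filter 9 and 11 of the list were called lower. DESeq2 called 0 of the 4 and edgeR's exact test called 1 lower.

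Lysosomal genes rose in 12 of 24 cases and fell in 1, with a median of 0.23. Without MSK2 siRNA replicate 2 there were 7 that rose, and without MSK2 siRNA replicate 1 there were 2 that fell. TPP1, a peptidase of the lysosome, was at 295, 281 and 311 CPM with control siRNA and 411, 439.9 and 412 CPM with MSK2 siRNA (log2 fold change 0.51, SE 0.08, edgeR adjusted P = 1.24e-05). CTSA, cathepsin A, was at 539.8, 500.5 and 487 CPM with control siRNA and 659, 733 and 669.9 CPM with MSK2 siRNA. CTSB, cathepsin B, was the member that fell, at 3572, 3485 and 3394 CPM with control siRNA and 2819, 2951 and 2993 CPM with MSK2 siRNA. The groups did not overlap for any of these 3. Of 15 genes of the circadian clock 7 rose and 1 fell, and 4 rose without control replicate 2 or MSK2 siRNA replicate 3. The output regulator DBP was at 10.7, 5.95 and 7.27 CPM with control siRNA and 13.99, 20.6 and 18.3 CPM with MSK2 siRNA. The repressor CRY2 was at 47.4, 38.2 and 36.9 CPM with control siRNA and 65.8, 61.3 and 57.02 CPM with MSK2 siRNA. BHLHE41, a repressor that feeds back on the clock, was at 16.9, 18.5 and 20.4 CPM with control siRNA and 31.96, 32.7 and 29.5 CPM with MSK2 siRNA. All 3 were higher in each library with MSK2 siRNA. DBP overlaps SPHK2 in the annotation. NPAS2, an activator of the clock, was at 32.3, 27.7 and 25.1 CPM with control siRNA and 20.7, 16.4 and 17.4 CPM with MSK2 siRNA and fell.

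Immediate-early transcription factors did not move as a block. Of 30 tested 10 fell and 3 rose, with a median of −0.17, and 1 rose without MSK2 siRNA replicate 2. JUNB, a subunit of AP-1, was at 380.0, 350.5 and 325 CPM with control siRNA and 198, 242 and 197 CPM with MSK2 siRNA (log2 fold change −0.73, SE 0.11, edgeR adjusted P = 1.29e-05). MYC, a driver of growth, was at 107, 107 and 108 CPM with control siRNA and 59.00, 70.8 and 57.2 CPM with MSK2 siRNA. The orphan receptor NR4A1 was at 88.5, 74.4 and 79.8 CPM with control siRNA and 48.1, 52.2 and 36.9 CPM with MSK2 siRNA. FOS, the AP-1 subunit that peaks early after a stimulus, was at 73.4, 67.96 and 74.7 CPM with control siRNA and 39.2, 55.97 and 52.7 CPM with MSK2 siRNA (log2 fold change −0.54, SE 0.13, edgeR adjusted P = 0.00256). These 4 were lower in each library with MSK2 siRNA. NR4A2, the paralog of NR4A1, was at 27.8, 21.9 and 22.3 CPM with control siRNA and 58.1, 48.9 and 47.4 CPM with MSK2 siRNA (log2 fold change 1.11, SE 0.14, edgeR adjusted P = 1.38e-06), higher in each. Feedback inhibitors of growth factor signaling were split, with 6 of 28 higher and 5 lower (median 0.07). Besides DUSP4, RGS2 and BTG2, SPRY1 rose, from 21.2, 16.3 and 19.4 CPM with control siRNA to 33.6, 28.4 and 31.1 CPM with MSK2 siRNA. Besides DUSP1 and DUSP2, SOCS3, an inhibitor of cytokine receptors, fell, from 124, 117 and 109 CPM with control siRNA to 62.97, 68.2 and 64.02 CPM with MSK2 siRNA. JUNB overlaps HOOK2 and MYC overlaps CASC11 in the annotation.

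Of 22 tested genes of the cascade from the EGF receptor to ERK, 2 fell (9.09%, beside 10.1% of all genes tested), and 5 fell with edgeR's exact test or in a fit of the compared groups alone. At an unadjusted P under 0.05, 5 were lower and 1 higher. KSR1, a scaffold of RAF, MEK and ERK, was at 20.8, 14.98 and 16.02 CPM with control siRNA and 8.51, 5.80 and 8.45 CPM with MSK2 siRNA (log2 fold change −1.19, SE 0.26, edgeR adjusted P = 0.0015). GAB1, an adaptor of receptor tyrosine kinases, was at 14.8, 16.5 and 18.4 CPM with control siRNA and 10.2, 10.9 and 11.4 CPM with MSK2 siRNA, and its call (edgeR adjusted P = 0.0144) was lost without control replicate 3 (0.0748) or MSK2 siRNA replicate 1 (0.0547). Further lists concerned MSK2 substrates, histone H3 and housekeeping functions. In the first, 11 genes of the CREB family and its cofactors, 0 passed in edgeR, with 2 higher and 2 lower at an unadjusted P under 0.05, 1 called lower by DESeq2, and 1 higher and 2 lower by edgeR's exact test. Without MSK2 siRNA replicate 1, 1 was called lower. Of 11 kinases of H3 serine 10 and proteins that read it, 1 fell (9.09%, beside 10.1% of all genes tested). It was the kinase PIM1, at 81.2, 73.8 and 70.1 CPM with control siRNA and 34.6, 35.2 and 32.2 CPM with MSK2 siRNA (log2 fold change −1.14, SE 0.11, edgeR adjusted P = 5.85e-09). Among 26 genes of H3 lysine 9 methylation and the nuclear lamina 1 rose and 1 fell (2 fell without control replicate 1 or MSK2 siRNA replicate 1). Thus 7.69% were called, beside 19.4% of all genes tested. KDM4C, a demethylase of this residue, was at 19.1, 19.4 and 15.7 CPM with control siRNA and 31.7, 24.1 and 27.3 CPM with MSK2 siRNA (log2 fold change 0.62, SE 0.13, edgeR adjusted P = 0.000655), and the fall of the lamin B receptor LBR (edgeR adjusted P = 0.049) was lost without control replicate 2 (0.184) or 3 (0.12) or MSK2 siRNA replicate 2 (0.256) or 3 (0.141). The proteasome had 1 of 30 genes higher, and 0 without control replicate 3 or MSK2 siRNA replicate 2 or 3. Cytosolic ribosomal proteins had 2 of 56 higher and 1 lower, with 7 higher when MSK2 siRNA replicate 1 was left out and 0 higher without control replicate 1 or 3 or MSK2 siRNA replicate 2. The list does not hold the ribosomal protein RPS28, which is among the largest falls above. The lowest log2 fold change on the list was −0.33. With no filter or in a fit of the compared groups alone 4 were higher, and with edgeR's exact test 5. At 30 min of EGF the same list had 54 of 56 lower.

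Other lists are given mainly by their counts. NF-kB subunits and targets had 5 of 18 lower (2 without MSK2 siRNA replicate 3 and 3 without control replicate 1), among them CD274, the checkpoint ligand PD-L1, at 21.7, 17.02 and 13.6 CPM with control siRNA and 7.16, 9.06 and 7.38 CPM with MSK2 siRNA. Of 19 semaphorin and ephrin genes 4 fell and 1 rose, and 2 fell without control replicate 1 or MSK2 siRNA replicate 2 or 3. SEMA3C, a secreted guidance factor, was at 83.4, 87.7 and 95.9 CPM with control siRNA and 237, 211 and 217 CPM with MSK2 siRNA. Of 11 IGF binding proteins and stanniocalcins 2 rose and 1 fell (1 rose without MSK2 siRNA replicate 2). IGFBP2, a carrier of insulin-like growth factors, was at 79.04, 71.7 and 72.1 CPM with control siRNA and 22.02, 26.6 and 27.9 CPM with MSK2 siRNA. The groups did not overlap for any of these 3 genes. Hypoxia targets had 3 of 14 lower, autophagy genes 3 of 19 higher and heat shock proteins 2 of 16 higher and 2 lower (0 lower without control replicate 2). Translation initiation factors had 2 of 19 higher and 2 lower (1 higher without control replicate 1 or MSK2 siRNA replicate 3), and ribosome biogenesis 2 of 21 lower (0 without control replicate 1). Of 9 angiogenic ligands and receptors 5 rose and 3 fell, so that 88.9% were called, beside 19.4% of all genes tested. On this list 3 rose without control replicate 3 or MSK2 siRNA replicate 1 or 3. Of 16 CDK inhibitors and G1 cyclins 4 rose and 1 fell, and of 14 matrix proteases and their inhibitors 1 rose and 3 fell (1 fell without control replicate 3). Interferon-stimulated genes had 1 of 18 higher (0 without any 1 of the control replicates or MSK2 siRNA replicate 2 or 3). With no filter or in a fit of the compared groups alone 4 were higher, and with edgeR's exact test 5. Nuclear genes of the respiratory chain had 1 of 27 higher. The count was 6 without MSK2 siRNA replicate 1 and 2 without control replicate 2. It was 0 without control replicate 1 or 3 or MSK2 siRNA replicate 2 or 3.

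Most differences at 60 min were also seen in cells that had received no EGF. After PBS, 1192 genes were higher with MSK2 siRNA (12.2%) and 1234 lower (12.6%), and at 30 min 1457 were higher (14.9%) and 1483 lower (15.2%). The libraries of the 3 conditions are separate, although they share 1 estimate of the spread. Of the 915 genes higher at 60 min, 704 (76.9%) were called higher after PBS, 675 (73.8%) at 30 min and 591 (64.6%) in all 3 conditions, while 126 were called at 60 min alone. Of the 982 lower genes, 825 (84.0%) were called lower after PBS, 743 (75.7%) at 30 min and 690 (70.3%) in all 3, and 103 at 60 min alone. Those counts of single calls are no test of a difference. Across the 9770 genes, which are not independent, log2 fold changes at 60 min had a Pearson correlation of 0.871 with those after PBS (Spearman 0.794) and of 0.743 with those at 30 min (Spearman 0.605). After PBS the list medians were −0.89 for cholesterol synthesis and uptake, −0.44 for actin and SRF targets and 0.45 for LXR targets and sterol efflux. At 60 min they were −0.83, −0.43 and 0.50. For other lists the values in the 3 conditions were further apart. Cytosolic ribosomal proteins make up the ribosome with its RNAs. Of the 56 tested on the list, which does not hold RPS28, 54 were called lower at 30 min (median −0.44). After PBS 6 were (median −0.07), beside 1 lower and 2 higher at 60 min (median 0.11). In the effect at 60 min minus that at 30 min 0 of the 56 passed in edgeR (smallest adjusted P = 0.207), although 54 were higher at an unadjusted P under 0.05. Interferon-stimulated genes had a median of −0.26 after PBS and −0.17 at 30 min, with 2 and 3 called lower, beside 0.12 at 60 min, and 0 of 18 passed in edgeR for the difference from PBS, with 2 higher at an unadjusted P under 0.05. INSIG1 had log2 fold changes of −1.39 after PBS and −1.26 at 30 min, ACTG2 of −1.88 and −1.91, GAL of 2.76 and 2.62, and PTGS2 of −1.80 and −1.58.

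**Figure D3:**
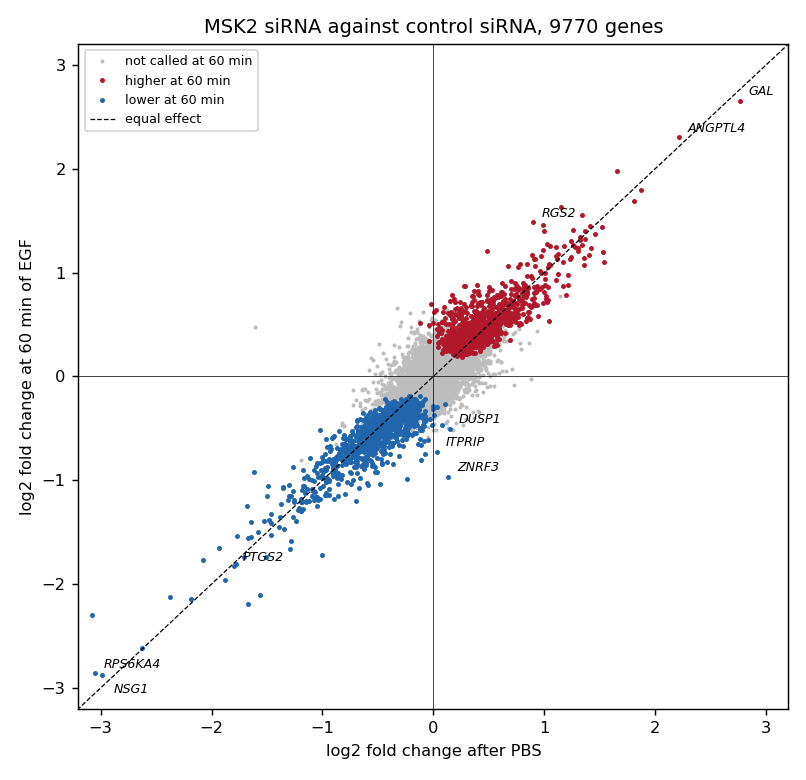
Log2 fold change of MSK2 siRNA against control siRNA for 9770 genes at 60 min of EGF (vertical axis) and after PBS (horizontal axis). Each point is a gene, red where higher and blue where lower at 60 min at an edgeR adjusted P under 0.05, and the dashed line marks equal effects. Most called genes lie near the dashed line, and DUSP1, ITPRIP and ZNRF3 lie below it.

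The difference between the effect of MSK2 siRNA at 60 min and its effect after PBS was tested gene by gene, and 0 of 9770 genes passed in edgeR in either direction. With P unadjusted and under 0.05, 105 were higher and 111 lower. With few libraries a group, a difference that did not pass is not thereby shown to be absent. DESeq2 called 0 higher and 3 lower, and edgeR with no filter on low counts called 1 higher and 3 lower. With the replicate number as a block 2 genes passed, DUSP1 and ITPRIP (edgeR adjusted P = 0.0494 for both). The genes with the smallest P lay just outside the threshold. DUSP1 (ENSG00000120129, chromosome 5 from 172768096 to 172771195), the phosphatase that inactivates MAP kinases, was at 444, 419.5 and 441 CPM with control siRNA and 285, 308 and 327 CPM with MSK2 siRNA at 60 min. After PBS it was at 57.8 to 70.6 CPM with control siRNA and 61.7 to 77.00 CPM with MSK2 siRNA, and at 30 min at 193 to 240.2 CPM and 229 to 257 CPM. The MSK2 siRNA libraries were thus the lower ones at 60 min alone, and the groups overlapped at the other times. Its log2 fold changes were 0.15 after PBS (edgeR adjusted P = 0.201), 0.26 at 30 min (0.0123) and −0.51 at 60 min (0.000133). The effect at 60 min minus that after PBS was −0.66, SE 0.12, edgeR adjusted P = 0.0545. ITPRIP, which modulates the inositol trisphosphate receptor, was at 108, 119 and 113 CPM with control siRNA and 74.7, 63.6 and 67.8 CPM with MSK2 siRNA at 60 min. After PBS it was at 34.9 to 49.7 CPM and 37.5 to 45.4 CPM, ranges that overlapped, and its difference from PBS was −0.75, SE 0.14, edgeR adjusted P = 0.0545. Without PBS control replicate 4 the DUSP1 difference passed (edgeR adjusted P = 0.0127), and without PBS control replicate 1 ITPRIP did (0.00228).

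The other genes of smallest P for this difference are shown with their effects at each time. On the lower side they included ZNRF3, a ubiquitin ligase that removes Wnt receptors, at 14.3, 13.1 and 11.5 CPM with control siRNA and 7.79, 5.80 and 6.32 CPM with MSK2 siRNA at 60 min, with log2 fold changes of −0.97 at 60 min and 0.13 after PBS. KLF6, a zinc finger transcription factor, had −0.27 and 0.10, and PRDM1, a transcriptional repressor, had −0.80 and −0.12. On the higher side RGS2 had 1.48 at 60 min and 0.89 after PBS, SRF had −0.92 and −1.62, and CDC42 had −1.25 and −1.68. These 6 differences did not pass (edgeR adjusted P = 0.216, 0.796, 1, 0.784, 0.891 and 1 in this order). In an added contrast, the effect at 60 min minus that at 30 min, 1 gene of 9770 passed in edgeR (0.0102%), DUSP1, with a difference of −0.77, SE 0.12, edgeR adjusted P = 0.00621. DESeq2 called 28 genes higher and 3 lower in this contrast, and edgeR with no filter on low counts 98 and 71. Without MSK2 siRNA replicate 1 of 60 min the adjusted P was 0.0504. With P unadjusted, 601 genes were under 0.05 on the higher and 460 on the lower side of this contrast.

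**Figure D4:**
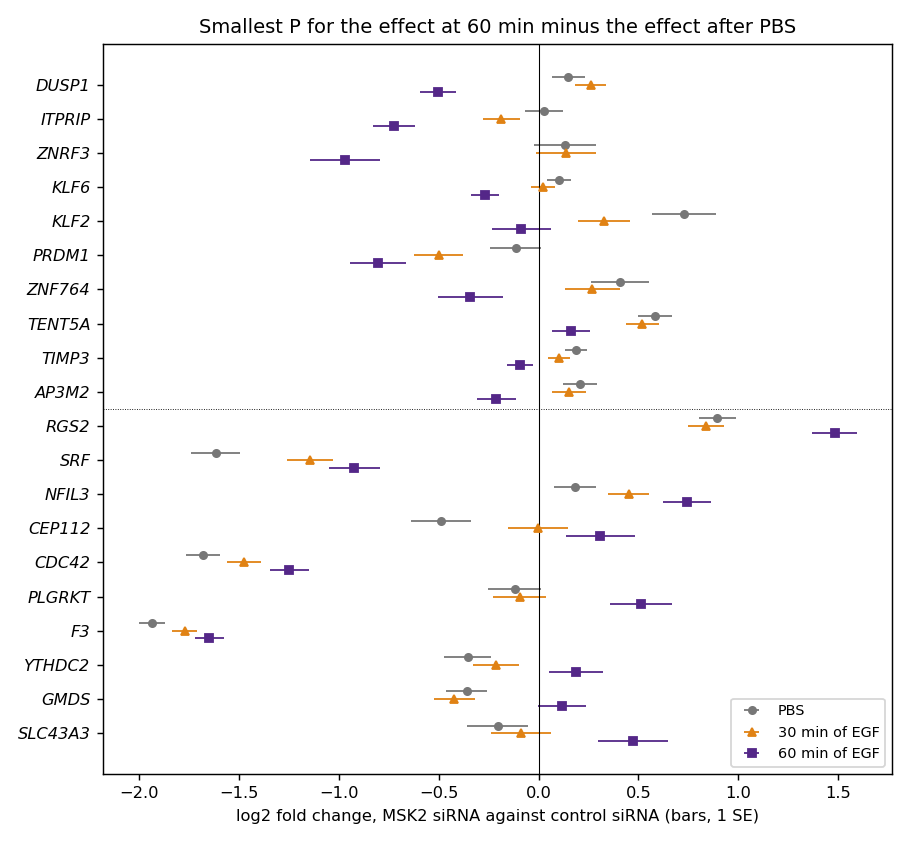
Log2 fold change of MSK2 siRNA against control siRNA after PBS (circles), at 30 min (triangles) and at 60 min of EGF (squares) for the 10 genes with the smallest P on each side of the difference between 60 min and PBS. Bars are 1 SE from edgeR and the dotted line parts the lower from the higher side. For DUSP1 the squares and circles lie on opposite sides of 0, while F3, CDC42 and SRF are below 0 at all times.

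The study's own list of 59 genes termed MSK2 dependent was chosen on these libraries, so its direction at 60 min is no finding. Its genes also had to be higher at 60 min of EGF than in untreated (PBS) cells. PBS libraries thus entered the choice, and the values after PBS are no outside check. All 59 were called lower at 60 min here, with a median log2 fold change of −0.64. After PBS, in libraries without EGF, 44 of the 59 (74.6%) were also called lower, with a median of −0.52. At 30 min 43 (72.9%) were, with a median of −0.45. Of all 982 genes lower at 60 min, 84.0% were called lower after PBS and 75.7% at 30 min, while of all genes tested 12.6% and 15.2% were. The list holds CHAC1, SRF, MYC, PIM1, F3 and NUAK2, described above, and RGCC, a regulator of the cell cycle, at 86.8, 84.5 and 73.1 CPM with control siRNA and 31.9, 31.5 and 30.5 CPM with MSK2 siRNA. DUSP1 and ITPRIP are not on this list, and ZNRF3, PRDM1 and DUSP2 are.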

How the data were processed

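Total RNA of 22 samples of IMR90 cells was made into libraries with SMART-Seq v4 and Nextera XT, which do not mark strand. Per the submitters' processing notes, the authors used bcl2fastq 2.20.0.422, STAR 2.7.9a on hg38 and HTSeq 0.13.5, and deposited whole-number read counts per gene with no normalization. The annotation release and the strand setting are not given in the sources used here. Rows that name no gene, 18.7 to 20.0% of reads at 60 min, were dropped.

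Groups were read from the labels. Genes over 10 CPM in at least 2 libraries were fitted with 6 group means over all 22 libraries by edgeR 4.0.16 in R 4.3.3 (TMM, quasi-likelihood test, Benjamini-Hochberg adjusted P under 0.05), where the study's methods used edgeR's exact test. Effects at 60 min were also contrasted with those after PBS and, as an addition made after seeing the data, at 30 min. The script was checked on simulated counts. At 60 min the siRNA groups share replicate numbers, and correlations of same-numbered libraries were weak (−0.031 to 0.145). With 3 libraries a group these cannot decide whether libraries were paired. The fit has no block, and a fit with the replicate block was run as an alternative. Alternatives were other scalings, filters, fits and tests, DESeq2 1.42.0 and the omission of single libraries.

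The gene lists and the members were chosen with earlier results of these data known. Genes named are the 15 largest rises and the 15 largest falls among called genes whose siRNA groups do not overlap, the 5 most abundant called genes in each direction, of each list the 6 members of smallest P and the 2 called members of smallest P against the list's median, all MSK and RSK genes and, for the difference from PBS, the 10 genes of smallest P on each side. Other members are named in lists of those called. PMVK, GAB1 and other single calls were named as the exceptions in a count. Some genes and 1 list that meet these rules are not reported here. Gene positions and overlaps come from GENCODE v44, promoters from RefSeq GRCh38.p14. Fold changes at 60 min rest on 3 libraries a group with 12169509 counts or more in each. The spread behind their P values was estimated over all 22 libraries.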

Additional observations from a re-analysis of the deposited data

Results flagged for a closer look

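The effect of MSK2 siRNA on DUSP1, the phosphatase that inactivates MAP kinases, differed between times of EGF. The effect at 60 min minus that at 30 min was −0.77 on the log2 scale (SE 0.12, edgeR adjusted P = 0.00621), and 1 gene of 9770, DUSP1, passed in edgeR, where DESeq2 called 28 genes higher and 3 lower and edgeR with no filter on low counts 98 and 71. Over 21 settings the difference lay between −0.83 and −0.71 and its adjusted P between 1.21e-06 and 0.0504, the latter without MSK2 siRNA replicate 1 of 60 min. All 3 libraries with MSK2 siRNA were below the 3 with control siRNA at 60 min. Its cause was not tested.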

How the results depend on the processing

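At 60 min the number of genes called higher and lower was 887 and 1013 with DESeq2's size factors, 1009 and 904 with library sizes alone, 880 and 1131 with filterByExpr, 722 and 1017 with no filter, 994 and 1142 in a fit of the compared groups alone, 1104 and 1228 with edgeR's exact test and 983 and 1090 with DESeq2. With an absolute log2 fold change over 0.5 also asked for, there were 398 higher and 515 lower at 60 min, 402 and 517 after PBS and 533 and 488 at 30 min. Without single libraries, 651 to 825 were higher and 743 to 861 lower at 60 min. For the difference from PBS, no filter gave 1 higher and 3 lower and DESeq2 3 lower, and single libraries left out gave 0 to 1 lower. For the difference from 30 min, no filter gave 98 higher and 71 lower, a fit of the compared groups alone 1 and 3, DESeq2 28 and 3, and single libraries left out 0 to 1 lower. The DUSP1 and ITPRIP differences from PBS passed in DESeq2 (both adjusted P = 0.000839) and with no filter (edgeR adjusted P = 0.00987 and 0.0126), and over 21 settings their adjusted P reached 0.36 and 0.413. The cause of these shifts was not tested.

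The correlations of same-numbered libraries at 60 min, as deviations from the group means, were −0.031, 0.145 and 0.069, and not every library correlated best with its own number. With the replicate block 883 genes were higher and 960 lower at 60 min, and 2 were lower in the difference from PBS, DUSP1 and ITPRIP (edgeR adjusted P = 0.0494 for both).

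Of 176 genes named besides RPS6KA4, 174 were called at 60 min. Of these, 158 passed without each library at 60 min in turn, 166 passed under every other alternative run and 0 changed direction. Most were named for a large change or a small P in the main fit. Their share therefore does not stand for all called genes, whose counts without single libraries are given above. For the gene lists, edgeR's exact test gave 8 lower members each for NF-kB, the TGF-beta and BMP family and feedback inhibitors (5 each in the fit over all 22 libraries) and 4 higher in the Wnt pathway (2). A fit of the compared groups alone gave 7 lower collagens (4), and no filter gave 4 higher clock genes (7), 7 higher lysosomal genes (12), 2 higher angiogenic ligands and receptors (5) and a median of −0.12 for matrix glycoproteins and proteoglycans (−0.05). Genes under the filter of 10 CPM in 2 libraries were not tested.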
